A study of Mus musculus with 12 samples.

Results

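The genes described here are complement components and regulators: C1ra, C1s1, C2, C3, C4b, Cfb, Serping1 and Cd55. They were chosen by gene symbol. Of these 8 symbols 7 had a row among the 15002 genes of the tables, and Cd55 was not analysed here. A filter on low counts left 6 of the 7 in a table of 11900 tested genes, with Cfb below it.

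RNA was sequenced from IEC4.1, a mouse intestinal epithelial cell line labelled wild type, in 4 groups of 3 libraries each. Cells were transfected with scrambled siRNA (siR_Ctrl) or with pooled siRNAs to the long noncoding RNA Nostrill (siR_Nostrill), each with no cytokine (0 ng/ml) or with IFN-γ at 1 ng/ml for 4 h. The labels give 24 h for every library, and the study's methods place the 4 h of IFN-γ after the transfection. The line is a single cell line, and the study describes its libraries as biological triplicates. The design asks how IFN-γ changed each gene, and whether siR_Nostrill changed the gene or its response.

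Library depth was 17824306 to 19093204 reads on genes, of which the 7 members together held 0.0105% to 0.0312%. Nostrill had no row among the genes used here, so its knockdown was not checked. The defining markers of the epithelial label were absent or near 0: Epcam, Cdh1, Cldn3, Cldn7 and Ocln had no row, Krt8, Krt18, Vil1 and Cdx2 were at most 0.28 FPKM, a level scaled for transcript length and library size, while Krt19 ranged from 0.91 to 2.76 FPKM and Tjp1 from 4.8 to 16.01 FPKM. Of 7 fibroblast markers Col1a1 ranged from 175.72 to 315.14 FPKM, Col1a2 from 128.42 to 202.5 and Col3a1 from 42.84 to 89.77. Pdgfra ranged from 7.84 to 23.76 FPKM and Dcn from 13.18 to 22.69, while Lum and Thy1 were at most 0.27 FPKM. The summed level of that list was 370.45 to 654.1 FPKM with no group apart. Of 8 blood-derived markers 5 had a row and their sum was 1.37 to 2.58 FPKM, with Ptprc at most 0.01 FPKM. Of 6 hepatocyte markers 2 had a row, and their sum was at most 0.88 FPKM.

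Complement is a cascade of plasma and cell-surface proteins that tags microbes and altered cells for uptake or lysis. In the classical pathway the recognition protein C1q carries the proteases C1r and C1s; C1r activates C1s, which cuts C4 and C2 so that their fragments form an enzyme that cleaves C3. The alternative pathway uses factor B (Cfb) in the place of C2, C1 inhibitor (Serping1) inactivates C1r and C1s, and CD55 takes apart the C3-cleaving enzymes on cell membranes. The liver makes most plasma complement, epithelial and stromal cells make some of it locally, and IFN-γ is a known inducer of several of these genes.

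Sequences are shown first because 3 members, C1ra, C1s1 and C4b, have near-identical copies in the mouse genome, which bears on their counts below. In GRCm38.p6, C1ra (chr6:124512621-124523440) and C1s1 (chr6:124530344-124542392) lie beside copies C1rb (chr6:124570430-124581044) and C1s2 (chr6:124624625-124636085). C4b (chr17:34728139-34743902) lies near C4a (chr17:34809092-34823460), which RefSeq annotates as a transcribed pseudogene. Between the longest GENCODE vM21 transcripts, C1ra and C1rb were identical at 98.0% of 2429 aligned bases, C1s1 and C1s2 at 95.9% of 2661, and C4b and C4a at 96.1% of 5367. The stretch of 60 coding bases within 1 exon where C4b and C4a differed most is printed to show what tells their reads apart. It lies in exon 21 of 41 in both transcripts, on the minus strand of GRCm38, at chr17:34735430-34735489 for C4b and chr17:34816086-34816145 for C4a, and capitals mark the 13 bases that differ.
C4b: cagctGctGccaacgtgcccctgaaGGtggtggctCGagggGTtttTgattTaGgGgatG
C4a: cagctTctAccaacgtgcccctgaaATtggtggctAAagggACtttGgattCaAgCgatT

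A read of 100 bases could fall on a stretch shared with another gene in 16.5% of positions along C4b, all with C4a. For C1s1 the share was 7.90%, with C1s2, and for C1ra 35.9%, with C1rb and the pseudogene Gm18840. No window of C3 or Serping1 was shared. For C2 and Cfb the shares were 53.2% and 81.0%, with Gm20547, a transcript that spans both genes. The tables list C2, C4b, Cfb and C4a on an alternate scaffold of the locus, and the sources used here do not give how the counting divided shared reads. Estimated counts of C2 and Cfb were whole numbers in every library, as were those of C3 and Serping1. Those of C1ra and C1s1, and of C4b wherever it had reads, were fractional.

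The RefSeq table of sequences around gene starts in GRCm38.p6 held C1ra, C1s1 and C3 among the members. C2, C4b, Cfb and Serping1 had no entry. Windows of 300 bases, 250 before and 50 after each start, were searched on both strands for the gamma-activated sequence TTCNNNGAA (GAS), the core of the interferon-stimulated response element (ISRE; GAAA, any 2 bases, GAAA), an NF-kB site (GGGA, any base, TTTCC) and TTNNGCAA for C/EBP proteins. The windows of 9.55% of 27025 genes held GAS, 3.99% ISRE, 0.466% the NF-kB letters and 12.2% TTNNGCAA. C1ra held GAS once, beginning 33 bases after its start, and C1rb held the same 9 bases 119 bases before its own start. The surrounding 30 bases, identical at 29 positions, are printed as they are the only GAS match found around a member; capitals mark first the TTNNGCAA match and then the GAS match, which do not overlap. They lie on the plus strand at chr6:124512635-124512664 for C1ra and chr6:124570293-124570322 for C1rb.
C1ra: gtTTATGCAAatgcttcaTTCCCTGAAaca
C1rb: ctTTATGCAAatgcttcaTTCCCTGAAaca

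C1s1 and C3 held neither GAS nor ISRE nor the NF-kB letters, and each held TTNNGCAA on 1 strand. Their sequences are printed as those of the most and the least responsive of the abundant members: 217 bases before the outermost RefSeq start of C1s1 (minus strand, chr6:124542393-124542609) and 250 before that of C3 (minus strand, chr17:57228137-57228386), with the TTNNGCAA match in capitals.
C1s1: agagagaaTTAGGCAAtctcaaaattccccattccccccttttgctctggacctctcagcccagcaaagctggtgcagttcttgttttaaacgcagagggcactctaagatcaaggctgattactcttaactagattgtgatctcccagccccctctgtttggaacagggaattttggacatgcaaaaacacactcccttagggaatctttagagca
C3: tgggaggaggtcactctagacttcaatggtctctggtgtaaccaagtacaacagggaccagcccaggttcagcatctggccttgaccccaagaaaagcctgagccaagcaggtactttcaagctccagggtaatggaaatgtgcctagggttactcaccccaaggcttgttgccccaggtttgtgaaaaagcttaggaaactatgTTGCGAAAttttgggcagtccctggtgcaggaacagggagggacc

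IFN-γ raised the transcripts of C1ra and C1s1, the proteases of the C1 complex, of C4b and of the inhibitor Serping1 with either siRNA. C2 was called higher in siR_Nostrill cells, and C3, the component on which the pathways converge, was not called. In siR_Ctrl cells 4 of the 6 tested members had a higher level (adjusted p below 0.05, quasi-likelihood test of edgeR, Benjamini-Hochberg over all 11900 genes) and 0 a lower one, where 4.71% of all tested genes were called higher and 0.748% lower. In siR_Nostrill cells 5 of the 6 were called higher and 0 lower, against 5.24% higher and 1.55% lower among all. The siR_Nostrill libraries without IFN-γ came in tables with another column order than the other 9. The total of TPM, a further level scaled for length, also differed slightly. Whether these libraries were processed differently is not known. In the responses of siR_Nostrill cells, and in the interactions, any such difference and IFN-γ or its interaction cannot be told apart. C2, C4b and Serping1 passed the filter only through the IFN-γ libraries, so these counts are a description of the genes and no support for a response of the group.

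The C1 proteases had the highest levels of the members with IFN-γ. C1ra, the protease that activates C1s, was at 14.14, 14.31 and 17.75 FPKM in the siR_Ctrl libraries and at 37.97, 36.54 and 37.87 FPKM with IFN-γ. In siR_Nostrill cells it was at 17.96, 17.22 and 17.86 FPKM, and at 39.04, 40.38 and 40.18 FPKM with IFN-γ. Every library with IFN-γ lay above every library without it, as held within siR_Ctrl for 9.57% of all tested genes and within siR_Nostrill for 18.5%. C1ra rose 2.55-fold in siR_Ctrl cells (log2 difference 1.35 ± 0.10 SE, adjusted p = 2.08e-06) and 2.22-fold in siR_Nostrill cells (1.15 ± 0.10, adjusted p = 8.83e-06). In bulk RNA a change in the share of responding cells and a change in RNA per cell cannot be told apart.

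C1s1, the protease that cuts C4 and C2, was at 12.05, 7.94 and 9.64 FPKM in siR_Ctrl cells and at 44.34, 37.71 and 46.9 FPKM with IFN-γ. The siR_Nostrill libraries were at 10, 9.13 and 10.31 FPKM, and at 44.38, 48.36 and 41.7 FPKM with IFN-γ. The lowest of the 6 libraries with IFN-γ was above the highest of those without. Within siR_Ctrl alone such an order held for 9.57% of all tested genes, and within siR_Nostrill for 18.5%. C1s1 rose 4.57-fold in siR_Ctrl cells (2.19 ± 0.12, adjusted p = 1.48e-07) and 4.51-fold in siR_Nostrill cells (2.17 ± 0.12, adjusted p = 1.79e-07). An antisense transcript, Gm16567, overlaps C1s1 in GENCODE, and the sources used here do not give whether counting used strand.

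The order of these proteases, which pair in the C1 complex, turned over with IFN-γ. Per length, C1s1 stood at 0.852, 0.555 and 0.543 times C1ra in the siR_Ctrl libraries and at 1.17, 1.03 and 1.24 times with IFN-γ. The siR_Nostrill libraries gave 0.557, 0.530 and 0.577, and 1.14, 1.20 and 1.04 with IFN-γ. All 6 libraries with IFN-γ were above 1 and the other 6 below it. The log2 ratio differed by 0.85 in siR_Ctrl cells and 1.02 in siR_Nostrill cells. The ratio was chosen after its values were seen, so it is given as a description with no test. The effective lengths of C1ra and C1s1, 2526 and 2681 bases, were close to each other.

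**Figure D1:**
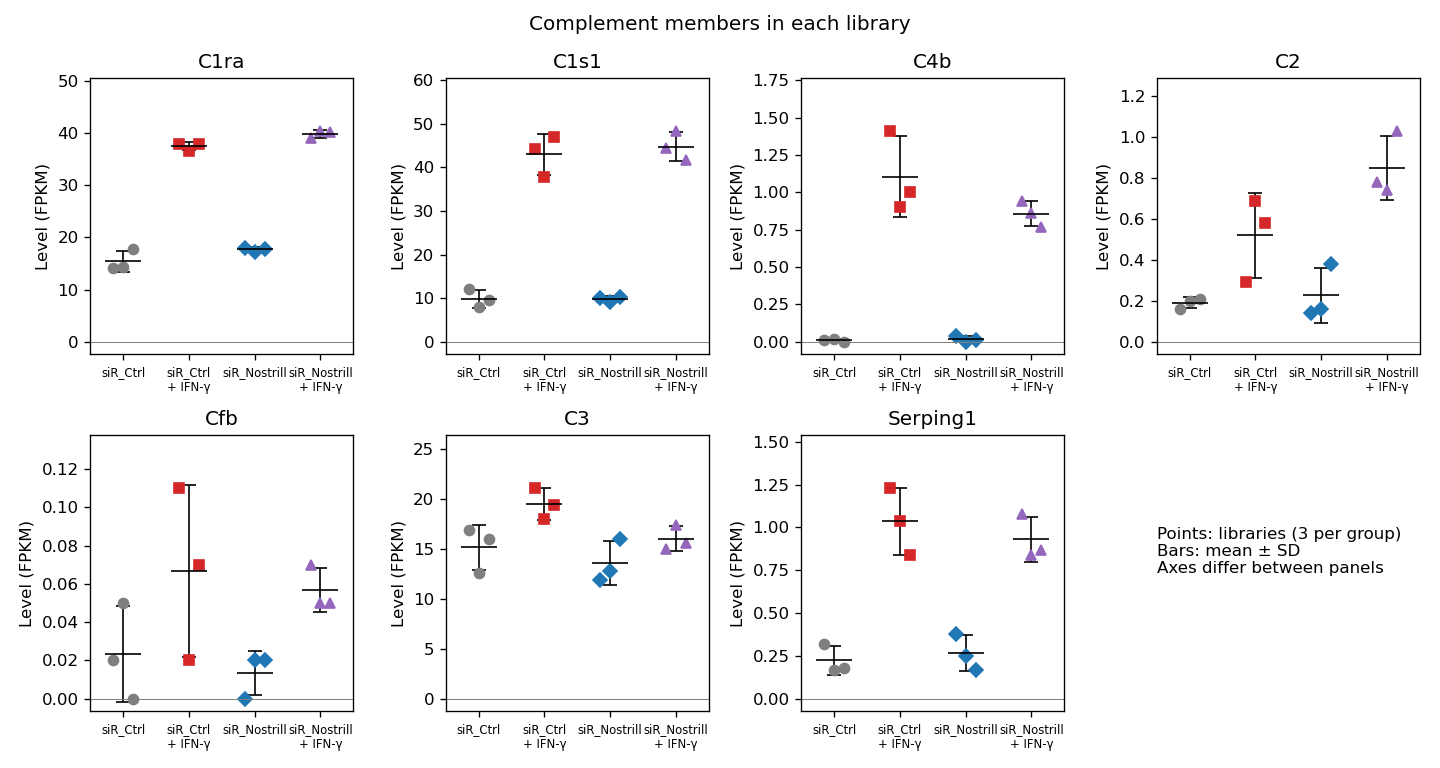
Level of the 7 members in each of the 12 libraries, as FPKM on the vertical axis with a scale for each panel, by group on the horizontal axis; points are libraries and bars mean ± SD (n = 3). C1ra, C1s1, C4b and Serping1 had each library with IFN-γ above each without. In counts scaled to library size, such an order held within siR_Ctrl for 9.57% of all tested genes and within siR_Nostrill for 18.5%. The C3 groups lay close, between 11.88 and 21.11 FPKM, though those of siR_Ctrl cells did not overlap in FPKM.

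C4b, whose product C4 forms the scaffold of the classical C3-cleaving enzyme, went from next to no reads to about as many as its copy C4a. It had estimated counts of 1.01, 2.12 and 0 reads in siR_Ctrl cells and 135.52, 88.59 and 96.12 reads with IFN-γ. In siR_Nostrill cells it had 4.17, 0 and 0.85 reads, and 88.05, 79.17 and 71.74 reads with IFN-γ. The groups with and without IFN-γ did not overlap, as held in this direction for 9.57% of all tested genes within siR_Ctrl and 18.5% within siR_Nostrill. Reads summed over libraries were 321 against 3 in siR_Ctrl cells, a ratio per read counted of 103 (95% exact interval 34.9 to 501, counting error only), and 239 against 5 in siR_Nostrill cells, a ratio of 48.0 (20.3 to 149). The difference passed the test in both (edgeR, adjusted p = 3.41e-06 and 1.31e-05). The fitted log2 difference itself rested on single reads: 6.58 in siR_Ctrl cells became 7.45 without siR_Ctrl 2, and 5.46 in siR_Nostrill cells became 6.998 without siR_Nostrill 1.

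C4a differed far less between the groups than C4b and was not called. It had 75.99, 94.88 and 97 reads in siR_Ctrl cells and 100.48, 112.41 and 104.88 with IFN-γ. In siR_Nostrill cells it had 78.83, 62 and 87.15 reads, and 107.95, 95.83 and 93.26 with IFN-γ. Within each siRNA every library with IFN-γ was above every library without it. Such an order held for 9.57% of all tested genes within siR_Ctrl and 18.5% within siR_Nostrill. The log2 difference was 0.25 (95% interval -0.07 to 0.58, edgeR, adjusted p = 0.5002) in siR_Ctrl cells and 0.37 (0.03 to 0.70, adjusted p = 0.191) in siR_Nostrill cells. As a share of all C4 reads, C4b made up 1.30% (95% exact binomial interval 0.0329 to 7.02), 2.06% (0.251 to 7.25) and 0% (0 to 3.73, and up to 3.09% by the limit of 3 reads) in siR_Ctrl cells. With IFN-γ the shares were 57.6% (51.0 to 64.0), 44.3% (37.3 to 51.4) and 47.8% (40.7 to 54.9). In siR_Nostrill cells they were 4.82% (1.33 to 11.9), 0% (0 to 5.78, and up to 4.84% by the limit of 3 reads) and 1.14% (0.0288 to 6.17), and with IFN-γ 44.9% (37.8 to 52.1), 45.1% (37.6 to 52.8) and 43.6% (35.9 to 51.6). When the reads of both copies were summed, a fit added after seeing the data, the total still rose, with a log2 difference of 1.24 in siR_Ctrl cells (adjusted p = 1.95e-04) and 1.19 in siR_Nostrill cells (3.46e-04). The 13 capitals in the C4b stretch above are of the kind that can assign a read to one copy, and the assignment itself was not tested.

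**Figure D2:**
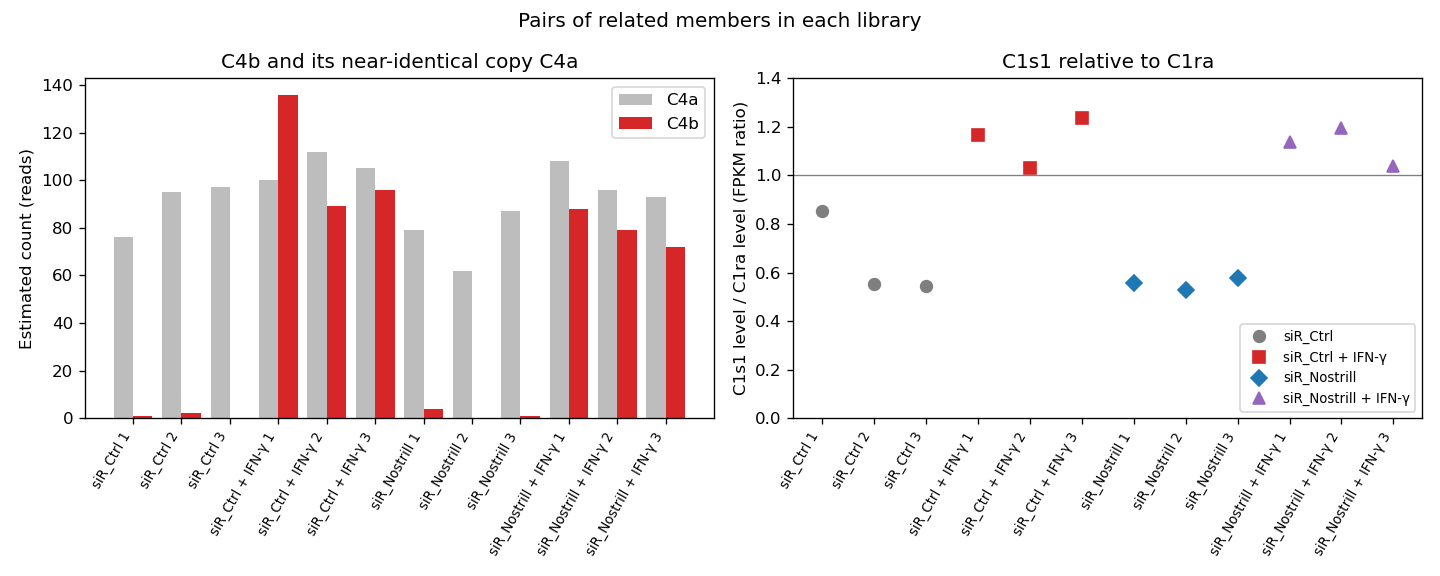
Left, estimated counts of reads for C4a (grey bars) and C4b (red bars) in each library; right, the ratio of the C1s1 to the C1ra level (FPKM) in each library, with a line at 1. C4b stood at 0 to 4.17 reads without IFN-γ and 71.74 to 135.52 with it, and the ratio crossed 1 in all 6 libraries with IFN-γ.

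C2, the protease of the classical C3-cleaving enzyme, was near the detection limit. It had 7, 9 and 9 reads in siR_Ctrl cells and 13, 32 and 26 with IFN-γ. In siR_Nostrill cells it had 6, 7 and 17 reads, and 34, 32 and 45 with IFN-γ. No library without IFN-γ reached the lowest with it within either siRNA, as held for 9.57% (siR_Ctrl) and 18.5% (siR_Nostrill) of all tested genes. C2 rose 3.65-fold in siR_Nostrill cells (log2 difference 1.87 ± 0.39, edgeR, adjusted p = 0.0128). In siR_Ctrl cells the difference was 2.85-fold (1.51 ± 0.42, adjusted p = 0.0722) and did not pass the test, and the difference between these responses was 0.36 (95% interval -0.97 to 1.69, adjusted p = 0.726). The calls turned on single libraries: in siR_Nostrill cells adjusted p was 0.0589 without siR_Nostrill 1, 0.0718 without siR_Nostrill 2 and 0.0549 without siR_Nostrill + IFN-γ 3. In siR_Ctrl cells it was 0.0233 without siR_Ctrl + IFN-γ 1 and 0.0441 without siR_Nostrill 3, and 0.0282 with DESeq2.

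Cfb, the alternative pathway's counterpart of C2, gave 0 to 5 reads per library and was below the filter of the edgeR fit. It had 1, 2 and 0 reads in siR_Ctrl cells and 5, 1 and 3 with IFN-γ; in siR_Nostrill cells it had 0, 1 and 1, and 3, 2 and 2 with IFN-γ. Summed reads were 9 against 3, a ratio of 2.88 (95% exact interval 0.720 to 16.6), and 7 against 2, a ratio of 3.51 (0.669 to 34.7). In the fits that kept every gene it was not called for IFN-γ: edgeR with no filter gave a log2 difference of 1.49 ± 0.84 (adjusted p = 0.559) in siR_Ctrl cells and 1.62 ± 0.95 (adjusted p = 0.380) in siR_Nostrill cells, and limma on all genes adjusted p = 0.426 and 0.296. DESeq2 gave adjusted p = 0.660 in siR_Ctrl cells and none in siR_Nostrill cells. At these counts no difference was detected.

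C3, cleaved in every pathway, differed little. It was at 16.91, 12.64 and 16.04 FPKM in siR_Ctrl cells and at 21.11, 17.96 and 19.41 FPKM with IFN-γ. In siR_Nostrill cells it was at 11.88, 12.78 and 16.04 FPKM, and at 15.04, 17.43 and 15.61 FPKM with IFN-γ. In FPKM the siR_Ctrl groups did not overlap, and in CPM, counts scaled to library size alone, they did, with siR_Ctrl 1 at 73.8 above siR_Ctrl + IFN-γ 2 at 66.6. The log2 difference was 0.34 in siR_Ctrl cells (95% interval -0.04 to 0.72, edgeR, adjusted p = 0.417) and 0.37 in siR_Nostrill cells (-0.01 to 0.75, adjusted p = 0.237).

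The libraries differed in how a gene's count deviated from its group mean with gene length, and C3 moved with that in 3 of the 4 groups. The correlation across genes of deviation and length was 0.78 in siR_Ctrl 1, 0.73 in siR_Ctrl + IFN-γ 3 and 0.71 in siR_Nostrill 3, where C3 had the most reads of its group, and -0.75 in siR_Ctrl 2 and -0.75 in siR_Ctrl + IFN-γ 2, where it had the fewest. In siR_Nostrill + IFN-γ the library with the highest correlation, 0.51, had 1221 reads of C3 and the next, 0.19, had 1225. A further edgeR fit removed a length trend taken from each library's deviations from the mean of all 12 libraries, not of its group. Such a correction can also remove length-linked differences between groups. In that fit C3 was called higher with IFN-γ in siR_Ctrl cells, with a log2 difference of 0.50 ± 0.09 (adjusted p = 0.00167). It was not called in siR_Nostrill cells, with 0.28 (adjusted p = 0.0548). For IFN-γ that fit called 1285 of all 11900 tested genes in siR_Ctrl cells and 1736 in siR_Nostrill cells. The difference between the responses of C3 was -0.22 (adjusted p = 0.360). The part of length in the uncorrected value was otherwise not tested.

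Serping1, the inhibitor of C1r and C1s, was at 9, 5 and 5 reads in siR_Ctrl cells and at 36, 32 and 25 reads with IFN-γ. In siR_Nostrill cells it had 11, 7 and 5 reads, and 31, 24 and 25 with IFN-γ. Again no library with IFN-γ reached down to those without. Within siR_Ctrl that held for 9.57% of all tested genes, and within siR_Nostrill for 18.5%. Serping1 rose 4.88-fold in siR_Ctrl cells (2.29 ± 0.32, edgeR, adjusted p = 7.83e-04) and 3.39-fold in siR_Nostrill cells (1.76 ± 0.32, adjusted p = 0.00466). Its level with IFN-γ, 1.04 ± 0.20 FPKM (SD, n = 3) in siR_Ctrl cells, was far below that of the proteases it inhibits.

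Levels per length put the members in 2 tiers, with the limit that the division of shared reads is not known. In the lower tier C2, Cfb and C4b had 53.2%, 81.0% and 16.5% of windows shared and were listed on the alternate scaffold. In the upper tier C1ra and C1s1 had 35.9% and 7.90% shared. Counts of C2 and Cfb were whole numbers in every library and so show no read divided in fractions. The part of shared reads in the levels was otherwise not tested. Without IFN-γ C1ra (15.4 ± 2.0 FPKM, SD, n = 3, in siR_Ctrl cells), C3 (15.2 ± 2.3) and C1s1 (9.88 ± 2.07) formed the upper tier, and C1ra and C3 overlapped. Serping1 (0.223 ± 0.084), C2 (0.190 ± 0.026), Cfb (0.0233 ± 0.0252) and C4b (0.0100 ± 0.0100) formed the lower one, in which Serping1 overlapped C2, and Cfb overlapped C4b. With IFN-γ the order was C1s1 (43.0 ± 4.7), C1ra (37.5 ± 0.8), C3 (19.5 ± 1.6), C4b (1.10 ± 0.27), Serping1 (1.04 ± 0.20), C2 (0.520 ± 0.207) and Cfb (0.0667 ± 0.0451), and C1s1 overlapped C1ra, and C4b overlapped Serping1. In siR_Nostrill cells the upper tier had the same order without overlaps, both without and with IFN-γ. There the lower tier with IFN-γ was Serping1 (0.930 ± 0.131), C4b (0.857 ± 0.085) and C2 (0.850 ± 0.157), each overlapping the next, above Cfb (0.0567 ± 0.0115).

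None of the 6 tested members was called between siR_Nostrill and siR_Ctrl, without or with IFN-γ, or for the interaction of siRNA and IFN-γ, by edgeR or by DESeq2. Among all tested genes 0.218% were called without IFN-γ, 0.429% with it and 0% for the interaction. At an unadjusted p below 0.05 edgeR had 1 member without IFN-γ, C1ra, 0 with IFN-γ and 0 for the interaction, where 1643, 1730 and 1277 of all genes passed. C1ra differed by 0.23 without IFN-γ (95% interval 0.02 to 0.44, adjusted p = 0.349). Without IFN-γ the siRNA and any difference in the processing of the siR_Nostrill tables cannot be told apart.

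With IFN-γ the interval of the siRNA difference was narrow for the C1 proteases, -0.18 to 0.23 for C1ra and -0.24 to 0.25 for C1s1 on the log2 scale. It was wider for C2 (-0.11 to 1.38) and Serping1 (-0.78 to 0.34). C4b was at 7.36, 5.16 and 5.03 CPM in siR_Ctrl + IFN-γ and at 4.71, 4.34 and 3.999 in siR_Nostrill + IFN-γ, so that the groups did not overlap, as held for 10.4% of all tested genes in that direction. Its difference of -0.43 (95% interval -0.999 to 0.14, edgeR, adjusted p = 0.490) did not pass the test. C3 differed by -0.27 (-0.65 to 0.11, adjusted p = 0.519) and, with the length trend removed, by -0.38 (adjusted p = 0.0198), the only member called between the siRNAs under any alternative. That fit called 1172 of all 11900 tested genes in this comparison.

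The response to IFN-γ in siR_Nostrill cells less that in siR_Ctrl cells was -0.20 for C1ra (95% interval -0.49 to 0.10), -0.02 for C1s1 (-0.37 to 0.33), 0.03 for C3 (-0.51 to 0.57) and -0.52 for Serping1 (-1.57 to 0.52). For C4b it was -1.12 (-3.56 to 1.32), set by a few reads in the cells without IFN-γ. Adjusted p (edgeR) was between 0.443 and 0.945 for the 6 members.

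**Figure D3:**
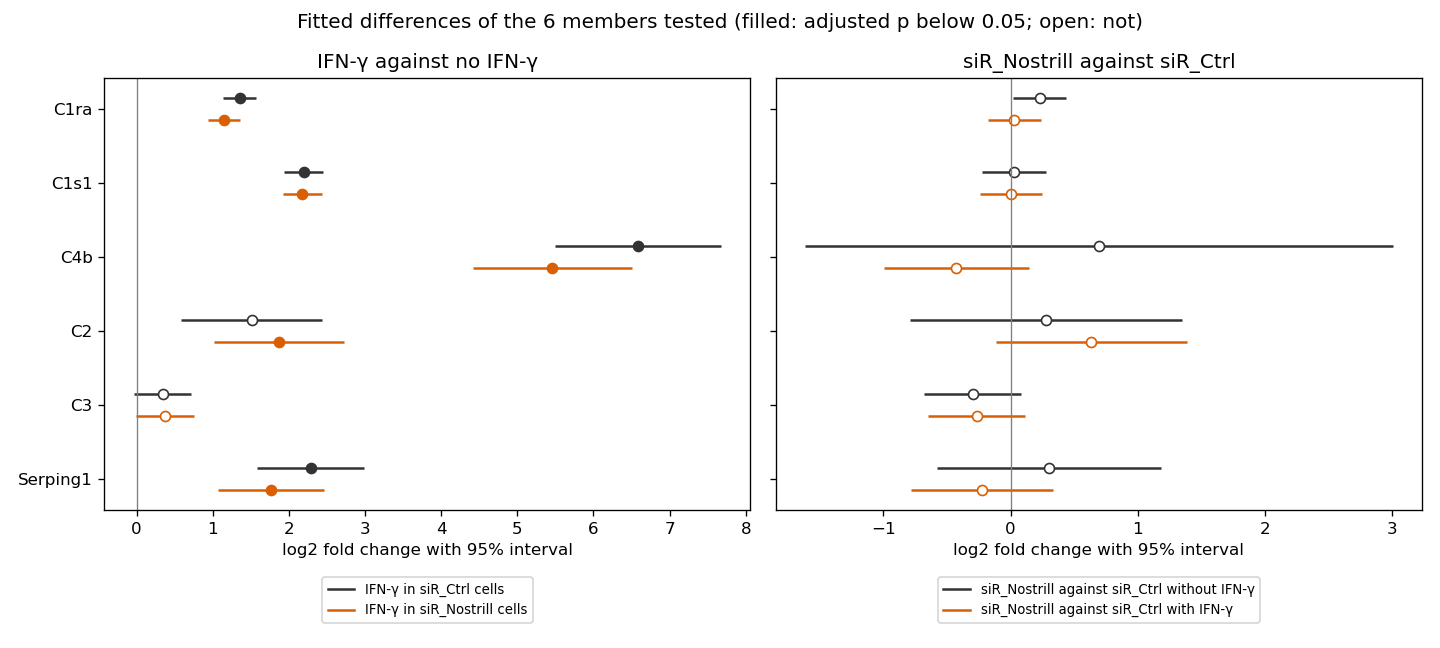
Fitted log2 differences (horizontal axis, points) with 95% intervals (lines) of the 6 tested members, for IFN-γ within each siRNA on the left and for siR_Nostrill against siR_Ctrl on the right. The intervals were worked back from the test statistic and can be too narrow at low counts. For C4b in siR_Ctrl cells the SE behind the line was 0.50, where DESeq2 gave 0.86. Filled points mark an adjusted p below 0.05: 4 and 5 members on the left, 0 on the right; the fitted value of C4b rests on 3 and 5 reads in the libraries without IFN-γ.

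Other genes of the complement system were read from a list of 54, of which 30 had a row and 16 were tested. With IFN-γ 2 of the 16 were called higher in siR_Ctrl cells and 3 in siR_Nostrill cells, and 0 lower in either. Among all tested genes 4.71% and 5.24% were called higher, and 0.748% and 1.55% lower. Their median log2 difference was 0.06 and 0.03, against -0.01 and 0.00 over all tested genes. Between the siRNAs 0 were called by edgeR, without or with IFN-γ, and 0 had an unadjusted p below 0.05.

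Those called were proteases and 1 receptor. C1s2, the copy of C1s1, rose by 2.13 ± 0.13 on the log2 scale in siR_Ctrl cells (edgeR, adjusted p = 4.24e-07) and 1.86 ± 0.13 in siR_Nostrill cells (1.22e-06). C1rl, a protease gene related to C1r, rose by 0.997 ± 0.170 (adjusted p = 0.00367) and 0.77 ± 0.17 (0.0167). C3ar1, the receptor of the C3 fragment C3a, had 8 to 28 reads and was called in siR_Nostrill cells, with 1.45 ± 0.27 (adjusted p = 0.00556), and not in siR_Ctrl cells, with 0.80 ± 0.25 (adjusted p = 0.108). The difference between those responses was 0.65 ± 0.37 (adjusted p = 0.438).

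The list had few genes of recognition or of the terminal pathway at a level that could be tested. The recognition gene tested was Colec12, at 27.6 ± 3.7 FPKM (SD, n = 3) in siR_Ctrl cells and 23.6 ± 4.4 FPKM with IFN-γ (edgeR, adjusted p = 0.575). C8g of the terminal pathway was tested with 3 to 15 reads (adjusted p = 0.982 in siR_Ctrl cells). C1qb, the only C1q chain with a row, had at most 1 read in a library, Hc, which encodes C5, at most 7, C6 at most 1 and C9 at most 3. Masp1, a protease of the lectin pathway, was at 8.15 ± 0.995 FPKM (SD, n = 3) in siR_Ctrl cells and 6.38 ± 1.17 FPKM with IFN-γ, a difference of -0.28 ± 0.12 (edgeR, adjusted p = 0.299). Cr1l, a membrane regulator that limits C3 activation in rodents, was at 11.4 ± 0.7 and 10.6 ± 1.2 FPKM (adjusted p = 0.902).

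Around the members, 20 protein-coding genes were the nearest listed on either side, and 17 of them were tested. Of these 3 were called higher with IFN-γ in both siRNAs: C1rl and C1s2 in the protease cluster, and Ube2l6, an enzyme that transfers the ubiquitin-like protein ISG15. Among all tested genes 4.71% were called higher in siR_Ctrl cells and 5.24% in siR_Nostrill cells. Ube2l6 starts 33.5 kb from Serping1 and rose by 1.98 in siR_Ctrl cells (edgeR, adjusted p = 1.91e-06). None of the tested genes beside C4b, Cfb and C2 was called, among them Tnxb (-0.41, adjusted p = 0.227), Stk19 (0.52, 0.365), Nelfe (0.20, 0.715) and Ehmt2 (0.05, 0.797). In the protease cluster C1rb, with 1.41 to 37.04 reads, had 1.51 (adjusted p = 0.175). Beside C3, Tnfsf9, a ligand of the TNF family, was the 1 neighbour called between the siRNAs with IFN-γ, higher in siR_Nostrill cells by 0.52 (adjusted p = 0.0468). In that comparison 0.429% of all tested genes were called.

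**Figure D4:**
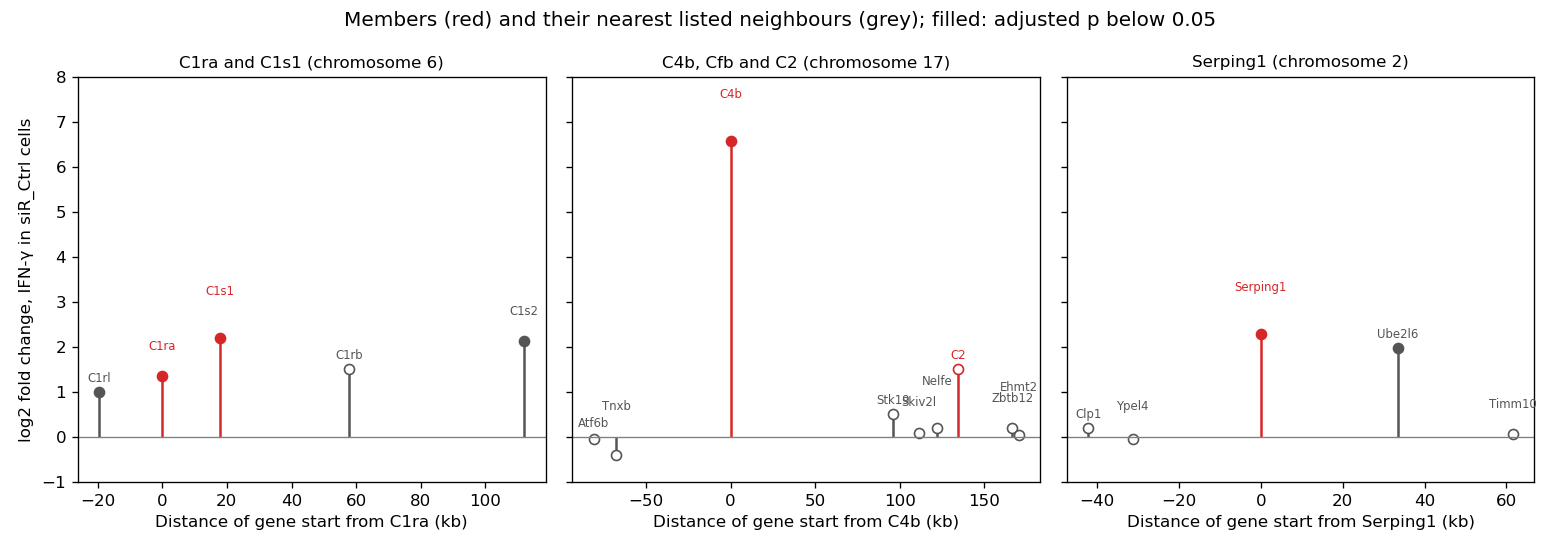
Fitted log2 difference for IFN-γ in siR_Ctrl cells (vertical axis) of members (red) and their nearest listed neighbours (grey) by the distance between gene starts in kb (horizontal axis). Filled points have an adjusted p below 0.05: C1rl and C1s2 beside C1ra and C1s1, Ube2l6 beside Serping1, and no neighbour of C4b, Cfb and C2; genes below the filter, Cfb among them, have no point.

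The genes whose pattern was most like a called member were found by the root mean square difference of log2 CPM over the 12 libraries, each centred on its siR_Ctrl mean. C1ra was nearest to Tapbp (0.0624), which encodes tapasin of antigen loading, and Nub1 (0.0772). C1s1 was nearest to Parp12 (0.121) and Tvp23a (0.141). Nlrc5, a transactivator of MHC class I genes, was among the 2 nearest to C4b (0.493). H2-T24, a nonclassical MHC class I gene, was among the 2 nearest to Serping1 (0.270). Since the members compared were called for IFN-γ, the choice itself favours genes that respond to it.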

How the data were processed

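The 12 libraries were read from per-sample tables. The authors filtered reads with SOAPnuke, used HISAT2 and Bowtie2 with GRCm38.p6 and deposited, for each gene, an estimated count that was not normalized, an FPKM value scaled for length and mapped reads, and a TPM value. For the counting tool the sources used here give no name. Deposited FPKM sums ranged from 570935 to 794809, and deposited TPM was used only to check layout. Counts were rounded and tested with edgeR 4.0.16 in R 4.3.3 (quasi-likelihood, TMM, default filter on low counts, all 12 libraries, Benjamini-Hochberg adjustment, threshold 0.05), after a check on simulated counts. The SE of an edgeR difference was worked back from its test, as the size of the difference divided by the square root of the F statistic. Its 95% interval was built from that SE. Ratios of summed counts have exact 95% intervals and shares exact binomial ones, and a count of 0 was read as at most 3 reads. The exact intervals cover counting error only, and molecular identifiers were not used. Groups came from the sample labels. Nothing beyond the study's word says that replicates came from separate cultures, so p-values measure the spread between these libraries. Alternatives were DESeq2 1.42.0, limma 3.58.1 on log2(FPKM + 1) or log2(FPKM + 0.1) (mean FPKM 0.5 or more, or all genes), other filters (none, or a mean CPM of at least 5), only the groups compared, a replicate block, a length trend removed (lowess span 0.3) and each library left out. The length trend was taken from deviations from the mean of all 12 libraries, so its removal can also take out length-linked differences between groups. Genes named were the 8 members, the list of 54, the nearest 2 neighbours on each side and the 2 most alike patterns. Members and lists were chosen with earlier results of these data known. Promoter sequences are from RefSeq (GRCm38.p6), transcripts from GENCODE vM21. Some genes that the naming rule covers are not reported here.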

Additional observations from a re-analysis of the deposited data

How the results depend on the processing

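Under the alternatives other than leaving out a library, the log2 differences of the 6 tested members kept their direction and their side of the threshold in 271 cases, 5 gained a call, 0 lost one and 10 turned in sign, all of them differences between siRNAs or interactions that no fit called; with a library left out the numbers were 339, 2, 3 and 16. The calls of C1ra, C1s1, C4b and Serping1 for IFN-γ held wherever they were tested. A mean CPM of at least 5 tested 3 members and called 2 for IFN-γ within either siRNA, and limma limited to a mean FPKM of 0.5 or more tested 4 and called 3 in siR_Nostrill cells with either pseudocount; fewer members were tested. With the length trend removed, all 6 were called in siR_Ctrl cells, where that fit called 1285 of all 11900 tested genes. Between siRNAs with IFN-γ it called 1 member, C3, and 1172 of all genes. In that comparison C1ra turned to -0.042 and C1s1 to -0.071, and the interaction of C3 turned to -0.22. On log2(FPKM + 1) the interaction of C1s1 was 0.055 and that of C3 -0.11, on log2(FPKM + 0.1) 0.054 and -0.12, with the same values over all genes; C4b was 1.05 and Serping1 0.73 in siR_Ctrl cells on log2(FPKM + 1), which understates low genes. With copies summed, chosen after seeing the data, C4b without IFN-γ differed by -0.20 between siRNAs.

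With a library left out, the difference between siRNAs without IFN-γ ranged from -0.080 to 0.16 for C1s1, -0.28 to 0.52 for C2, -0.84 to 1.56 for C4b and -0.060 to 0.61 for Serping1, and with IFN-γ from -0.051 to 0.035 for C1s1. The interaction ranged from -0.16 to 0.081 for C1s1, -0.14 to 0.21 for C3 and -1.99 to 0.41 for C4b. The causes were not tested. The number of members called was 4 to 5 for IFN-γ within each siRNA and 0 in the other comparisons. Where an alternative leaves 2 libraries in a group, the spread is pooled over groups.

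Same-numbered libraries correlated in their deviations from -0.49 to 0.73 over 18 pairs, and differently numbered ones from -0.81 to 0.77 over 36. The deviations also followed gene length, as given above for C3. These values therefore cannot decide whether equal numbers mark a shared culture or batch. With the replicate number as a block, 5 members were called for IFN-γ in siR_Ctrl cells, C2 among them (adjusted p = 0.0453), 5 in siR_Nostrill cells and 0 elsewhere.

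Totals over all genes moved more than the members. Against 649, 807, 26 and 51 called by edgeR for IFN-γ in siR_Ctrl cells, in siR_Nostrill cells, and between siRNAs without and with IFN-γ, DESeq2 called 838, 1330, 265 and 596, the fit of only the groups compared 341, 1997, 0 and 0, and the length-corrected fit 1285, 1736, 311 and 1172. Between siRNAs with IFN-γ, no filter gave 30, a mean CPM of at least 5 gave 105, the block 32 and limma 114 to 135; without IFN-γ limma over all genes gave 17. With 1 library left out the totals were 489 to 589, 491 to 1138, 0 to 37 and 0 to 72. For IFN-γ in siR_Nostrill cells they were lowest without siR_Nostrill 2; between siRNAs without IFN-γ 0 were called without siR_Ctrl 1, any of siR_Nostrill 1, 2 and 3 or siR_Nostrill + IFN-γ 2, and with IFN-γ 0 or 1 without siR_Ctrl + IFN-γ 1 or any of siR_Nostrill + IFN-γ 1, 2 and 3. The shares of all genes called between siRNAs therefore rest on single libraries. Low counts limited C2, C4b, Cfb and Serping1, with at most 17 reads in a library without IFN-γ. The whole-number counts of C2 and Cfb show no read divided in fractions with another gene. Whether C2, C4b and Cfb lost reads on shared stretches in another way was not tested.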
